A study of Mus musculus with 16 samples.

Results

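The comparison set the left ventricle of mice 7 days (7d) after abdominal surgery against that of mice 24 hours (24h) after it, with 4 RNA-seq libraries at each time. These are 8 of the 16 libraries of the series, whose other groups were sampled at 0h and 3h. Genes were taken by level alone, as those with a mean of at least 0.5 TPM (a level scaled for gene length and library size) over all 16 libraries. This kept 16866 of the 57143 genes in the table, of which 29424 had a count in any library. Because the mean includes the 24h and 7d libraries, a gene near the limit can pass only through the group where it is high. Every group, 0h included, held male C57BL/6 mice operated under sevoflurane, an inhaled anaesthetic, and no genotype, age or further agent is given. The tissue is labelled myocardium, with RNA taken from the left ventricle. S100A8/A9 and myocardial injury following non-cardiac operations stand in the series title. No label says which libraries came from separate animals, so p-values measure the spread between these libraries, which may be technical in part. "Rose", "higher", "fell" and "lower" give the level at 7d relative to 24h.

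As background, surgery sets off an acute-phase response, in which cytokines acting through STAT3 and adrenal glucocorticoids change transcription in many organs within a day. The working heart takes most of its energy from fatty acids, and PPARA, a nuclear receptor for fatty acids, and FOXO factors raise the genes of fat oxidation and of protein breakdown during fasting and stress. NRF2 raises antioxidant enzymes, metallothioneins bind zinc and copper, and apelin is a peptide of endothelial tip cells, the cells that lead a growing vessel.

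Total counts ran from 9.11 to 11.3 M (mega) per library at 24h and from 10.3 to 12.89 M at 7d. Ventricular cardiomyocyte markers summed to a TPM of 113100 to 129500 at 24h and 115800 to 145000 at 7d. Transcripts of atrial muscle moved with the comparison. Myl7, the atrial myosin light chain, had a TPM of 63.8, 126.5, 6.97 and 159 in replicates 1 to 4 at 24h, against 0.504 to 0.844 at 7d. Replicate 3 at 24h was the low one for Myl7, and it also stood nearest to the 7d libraries on the first principal component, with a score of 3.64 against 15.2 to 32.5 for the others at 24h and -15.2 to -0.139 at 7d. Of 13 atrial markers tested 5 fell (Myl4, Myl7, Nr2f2, Sln and Stard10) and none rose, against 4.34% of all genes lower. The number lower was 7 without 24h replicate 3, 2 without 24h replicate 2 and 0 or 1 without any other library, Nr2f2 and Stard10 losing their calls without 4 and 5 of the libraries. The whole list of 15 summed to 899 to 1348 at 24h and 894 to 3109 at 7d, which overlap, and the highest sum came with a TPM of 2760 for Nppa, the atrial natriuretic peptide gene, in 7d replicate 2. Since Myl7 is high in 3 libraries at 24h and low in all 4 at 7d, atrial transcripts and time cannot be told apart in most of these libraries, and their part in the results was not tested beyond the fits given here.

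**Figure D1:**
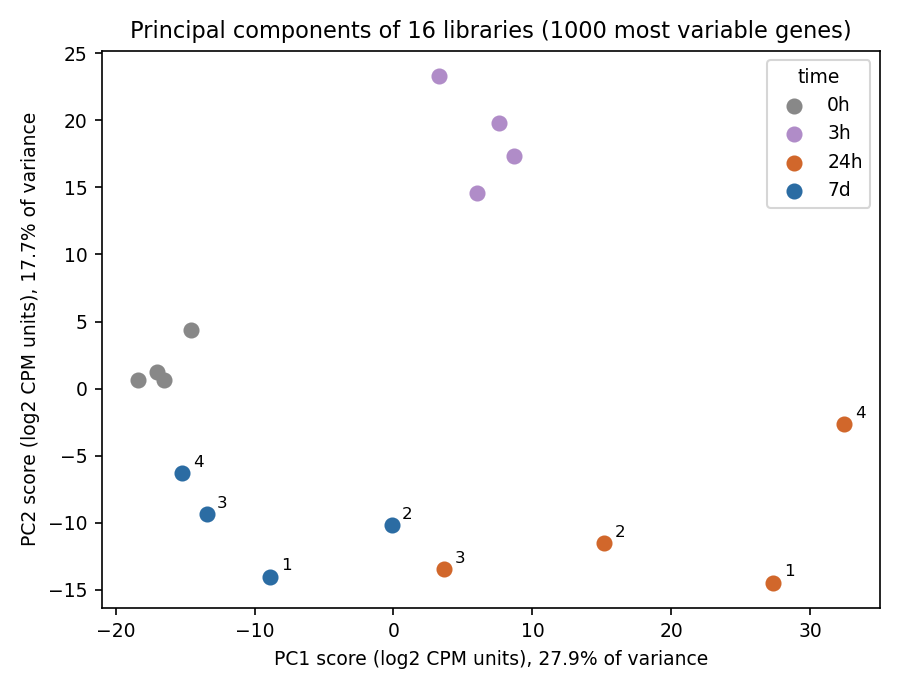
Scores of the 16 libraries on the first and second principal components of log2 CPM for the 1000 most variable genes, coloured by time, with the replicate numbers of the 24h and 7d libraries printed beside them. The 24h libraries spread along the first component from 3.64 for replicate 3 to 32.5 for replicate 4, and the 7d libraries lie between -15.2 and -0.139.

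Between 24h and 7d, edgeR's quasi-likelihood test called 1363 of 16866 genes at an adjusted p under 0.05, which is 8.08% of those tested. Of these, 631 rose (3.74%) and 732 fell (4.34%). A log2 fold change of at least 1 in size was reached by 341 called genes (2.02%), 134 higher (0.794%) and 207 lower (1.23%). The library TPM of the groups did not overlap for 1588 genes (9.42%), and 833 of the called genes were among them. Over all genes tested the median log2 fold change was -0.004 after the scaling used. This centre moved with the scaling, to 0.05 with library totals alone and 0.12 on log2(TPM + 0.1). It also differed with gene length, from -0.15 in the shortest of 4 equal parts to 0.05 in the longest. Medians of gene groups below therefore have no fixed reference at 0, and the part of such shifts in small medians was not tested. In the fit of all 16 libraries 7d against 0h gave 145 called genes (0.86%) and 24h against 0h gave 2933 (17.4%). These comparisons share libraries with the present one.

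Single libraries weighed on these counts. The call count was 2407 without 24h replicate 3, 755 without 24h replicate 1, 805 without 24h replicate 4 and 812 without 7d replicate 4. Of all 16866 genes, 1204 were higher and 1203 lower without 24h replicate 3, and 340 and 415 without 24h replicate 1. Without 7d replicate 2 these were 716 and 838, and without 7d replicate 4 they were 371 and 441. Member counts of lists on leaving out a library, above and below, are to be read against these. How far they follow the whole fit was not tested. A set of 557 genes was called whichever of the 8 libraries was left out. With the level of Myl7 as a covariate 23 genes were called, and with replicate 3 as the only 24h library 86 were called, where 1325 of the 1363 had the same sign as before. Of the 141 called genes under the naming rule, 7 were called with the covariate (Acot2, Gclm, Ifit2, Pnpla2, Slc27a1, Tuba1b and Tuba4a). In a fit of the 8 libraries of 24h and 7d alone 354 genes were called, and 57 of the 141. Calls lost there include Apln (adjusted p = 0.057), Cyp1a1 (0.0931), Mt2 (0.0704), Pdk4 (0.0625), Bnip3 (0.0589), Esm1 (0.0693), Arrdc3 (0.056) and Actc1 (0.0633).

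**Figure D2:**
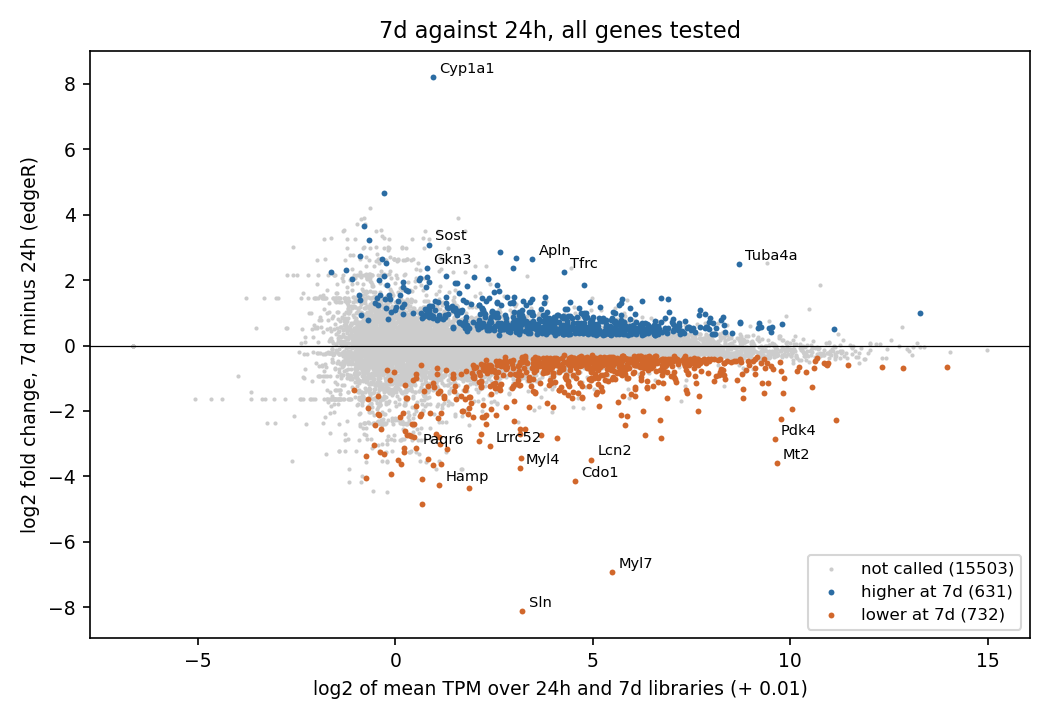
Log2 fold change of each of the 16866 genes, 7d minus 24h, against the log2 of its mean TPM over the 8 libraries (plus 0.01). Called genes are coloured (631 higher, 732 lower), and symbols mark 16 of the 24 genes with the largest changes under the naming rule; Myl7 and Sln lie lowest and Cyp1a1 highest.

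The naming rule took as largest rises and falls only genes whose groups do not overlap, so this absence of overlap is no separate result. The genes that rose most had their lowest mean TPM of the 4 times at 24h, except Esm1, which was lower at 3h. Cyp1a1, a cytochrome P450 induced through the aryl hydrocarbon receptor, had 0 counts in all 4 libraries at 24h and 165 counts over those at 7d. Its TPM at 7d was 7.47, 5.94, 0.894 and 1.12, and set against 3 counts for the whole 24h group, the limit that a count of 0 allows, it was at least 47.1-fold higher (adjusted p = 0.00236). Nmrk2, the muscle kinase that makes NAD from nicotinamide riboside, had a TPM of 2.88, 1.53, 1.90 and 1.84 at 24h and 23.1, 21.2, 6.99 and 7.39 at 7d. Of the 7d libraries 2 were high and 2 low, and the log2 fold change was 2.68 (SE 0.37, adjusted p = 9.06e-05). At 0h the mean TPM of Nmrk2 was 6.76 ± 1.07 (SD, n = 4), and 7d against 0h gave a log2 fold change of 1.21 with an adjusted p of 0.071. An antisense gene, Atcayos, overlaps Nmrk2, and since no strand setting of the counting is given, their reads cannot be told apart.

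Apln, which encodes the peptide apelin, was read at 1.54, 3.11, 4.94 and 1.99 TPM at 24h and 11.2, 7.38, 23.3 and 34.7 at 7d. Apln rose by a log2 fold change of 2.63 (SE 0.45, adjusted p = 0.00312). Tfrc, the transferrin receptor that carries iron into cells, had a TPM of 3.89 to 9.68 at 24h and 21.9 to 59.2 at 7d, a log2 fold change of 2.23 (SE 0.37, adjusted p = 0.00252). Sost, which encodes the Wnt antagonist sclerostin, rose by 3.09 (SE 0.63, adjusted p = 0.00367) from 0.117 to 0.568 TPM to 0.864 to 5.34 TPM. The other large rises were Esm1, Klra9, Lgi3 and Tuft1, with log2 fold changes between 1.90 and 2.11, and all of these genes were called in each of the 8 fits that leave out a library. Gkn3 (2.37, adjusted p = 0.026) lost its call without 24h replicate 2, 24h replicate 4 or 7d replicate 1. Klra9 has close copies, among which reads may have been split. Gdf15, a stress cytokine, was called at a log2 fold change of 2.87 (adjusted p = 0.041), but 7d replicate 2 alone reached 33.1 TPM while the other 7d libraries had 2.73 to 5.14 and those at 24h 0.768 to 2.39. The call of Gdf15 was lost without that library (log2 fold change 1.17, the lowest of these fits) and without any of the 24h libraries.

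The largest falls joined metabolic, metal-binding and secreted genes with atrial transcripts. Cdo1, cysteine dioxygenase, which starts the breakdown of cysteine to taurine, had a TPM of 97.8, 30.6, 16.8 and 30.6 at 24h and 2.19 to 3.33 at 7d. Replicate 1 was the highest of the 24h libraries, and Cdo1 fell by 4.14 on the log2 scale (SE 0.55, adjusted p = 0.000551). It was called in every fit that left out a library and also with replicate 3 as the only 24h library, but not with Myl7 as a covariate (log2 fold change -3.48, adjusted p = 0.2). Rnase1, a secreted endothelial ribonuclease, fell by 3.43 (SE 0.52, adjusted p = 0.00034), from 9.56 to 24.1 TPM at 24h to 0.251 to 3.60 at 7d. Sds, serine dehydratase, fell by 3.48, Paqr6 by 3.14 and Lrrc52 by 3.07, with adjusted p of 0.0018, 0.00146 and 0.00118. Mean TPM of Sds was 0.085 at 0h, 1.05 at 3h, 3.22 at 24h and 0.304 at 7d. Without its 24h libraries Sds would not have met the level limit, which favours its fall. Myl7, Sln, Myl4 and Hamp fell by 6.94, 8.12, 3.75 and 4.27, with adjusted p between 0.0312 and 0.0446. Sln (sarcolipin, an inhibitor of the calcium pump) and Myl4 (a second atrial light chain) followed the same libraries as Myl7, and all 4 calls were lost on leaving out any of 7 of the 8 libraries; without 24h replicate 3 they held. For Hamp, which encodes the iron hormone hepcidin, the fall rests on 24 counts against 1 (95% counting interval of the ratio, scaled by totals, 4.57 to 1152).

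**Figure D3:**
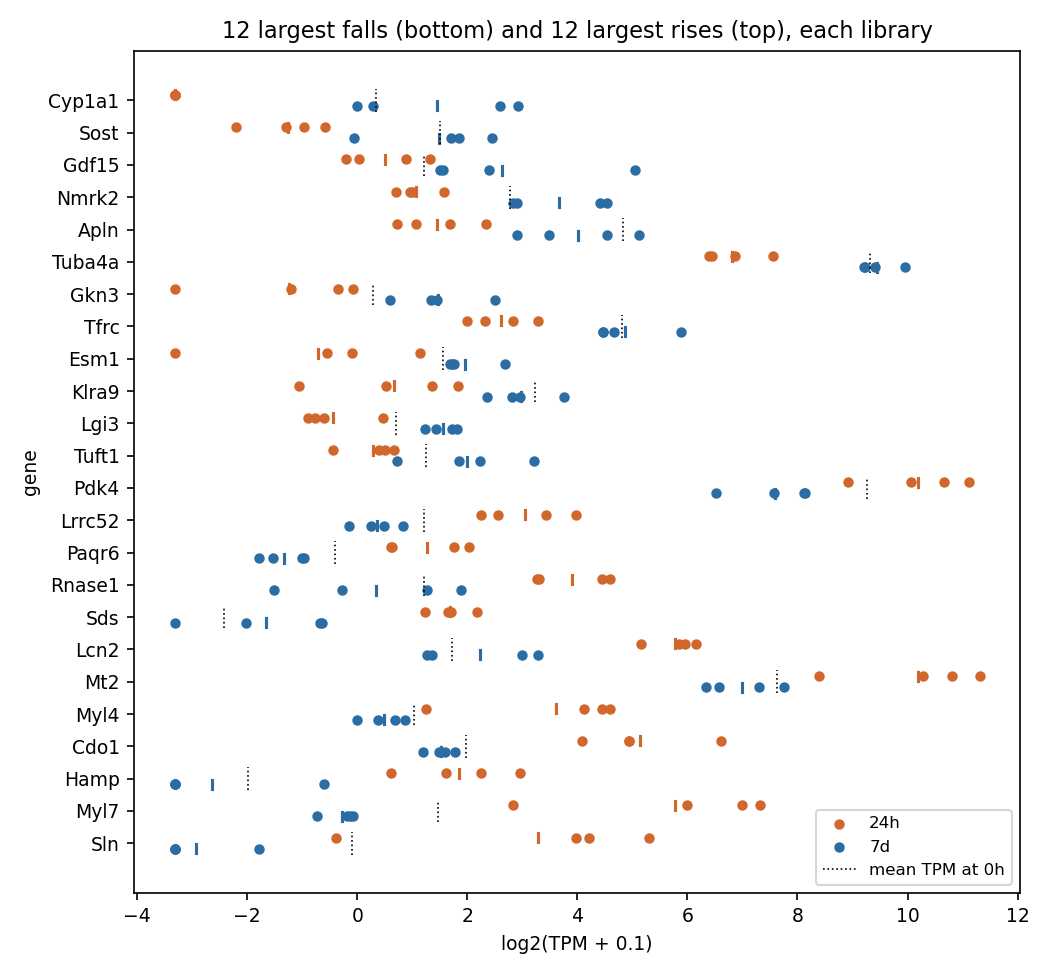
Log2(TPM + 0.1) of the 12 genes with the largest falls (lower rows) and the 12 with the largest rises (upper rows) in each library at 24h (orange) and 7d (blue), with group means on this scale as short bars and the 0h mean TPM as a dotted line. Groups do not overlap by the naming rule; the 24h points of Myl7, Sln and Myl4 hold 1 low library each, and Gdf15 has 1 high library at 7d.

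Glucocorticoid-responsive genes fell: 8 of 25 tested were lower and none higher, against 4.34% of all genes lower, with a median log2 fold change of -1.30. Mt2, a metallothionein, had a TPM of 1788, 1242, 336 and 2543 at 24h and 157, 216, 95.3 and 80.5 at 7d. Replicate 3 was the lowest of the 24h libraries, and Mt2 fell by 3.60 (SE 0.66, adjusted p = 0.00613). Mt1, its neighbour on chromosome 8, named here after its values were seen, went from 2152, 1119, 461 and 1856 TPM to 317, 436, 301 and 262 (log2 fold change -2.26, SE 0.43, adjusted p = 0.0071). Pdk4, the kinase that shuts off pyruvate dehydrogenase, fell by 2.87 (SE 0.51, adjusted p = 0.00493), from 484 to 2223 TPM to 91.4 to 282. Arrdc3, an arrestin-domain protein, fell by 1.23 (adjusted p = 0.00427). Of the other members called, Angptl4, Cdkn1a, Lcn2 and Sult1a1 fell too, while Fkbp5 (log2 fold change -1.88, adjusted p = 0.079) and Tsc22d3 (-0.57, adjusted p = 0.296), textbook targets of the receptor, did not pass. Leaving out a library gave 5 lower members without 24h replicate 1, 7d replicate 3 or 7d replicate 4, 10 without 24h replicate 3 and 14 without 7d replicate 2. The median was -0.59 without 24h replicate 4.

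The bases upstream of Mt1 and Mt2 are printed because both genes fell together and metallothionein genes are known for metal response elements. The windows are the 250 bases before the start of the RefSeq gene on GRCm38.p6, plus strand, chr8:94178839-94179088 for Mt1 and chr8:94172368-94172617 for Mt2. Capitals mark matches on either strand to the core letters TGCACNC or TGCGCNC.
Mt1: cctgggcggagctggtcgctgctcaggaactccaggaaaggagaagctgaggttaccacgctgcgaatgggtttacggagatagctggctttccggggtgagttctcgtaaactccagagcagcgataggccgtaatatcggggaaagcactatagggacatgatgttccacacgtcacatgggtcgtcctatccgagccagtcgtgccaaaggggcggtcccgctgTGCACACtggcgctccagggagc
Mt2: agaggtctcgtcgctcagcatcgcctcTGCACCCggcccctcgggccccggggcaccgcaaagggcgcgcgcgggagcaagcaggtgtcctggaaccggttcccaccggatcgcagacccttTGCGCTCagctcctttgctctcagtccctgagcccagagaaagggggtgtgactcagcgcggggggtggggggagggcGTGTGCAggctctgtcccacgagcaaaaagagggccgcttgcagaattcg
The Mt1 window held 1 match, ending 17 bases before the gene start, and the Mt2 window held 3, between 44 and 223 bases before it. GENCODE M21 starts Mt2 at 94172664, beyond the end of its window. Bases downstream of either window were not searched, so these are not counts for the whole promoter. Of 32851 windows of the same length, 21.4% held at least 1 such match and 1.26% held at least 3. A match is a description of the letters and not a binding site.

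Acute-phase and STAT3 target genes fell as well, with 9 of 30 lower, against 4.34% of all genes, none higher and a median log2 fold change of -0.59. Lcn2, the iron-sequestering lipocalin of the acute phase, had a TPM of 61.8, 57.3, 35.5 and 70.9 at 24h and 7.83, 9.64, 2.47 and 2.29 at 7d. The fall was 3.48 (SE 0.44, adjusted p = 0.000451). Serpina3n, a secreted protease inhibitor, fell by 2.83 (SE 0.31, adjusted p = 0.000103), from 185, 229, 109.7 and 216 TPM to 38.6, 34.98, 21.4 and 19.2; its 7d level was 1.04 log2 units from 0h, with an adjusted p of 0.16. Reads may be shared with close copies in its gene cluster. Lrg1, a secreted glycoprotein induced by interleukin 6, fell by 1.54 (SE 0.22, adjusted p = 0.000502). Saa3, a serum amyloid A, fell by 2.79 (adjusted p = 0.00549). Mean TPM of Saa3 was 0.024 at 0h, 0.284 at 3h and 0.364 at 7d, so it met the 0.5 TPM limit only through 24h (2.38). That admission favours a fall from 24h, so Saa3 is no separate support. Stat3 itself was lower (log2 fold change -0.47, adjusted p = 0.0154), a call lost without 24h replicate 1 or 7d replicate 3. Without 24h replicate 3 there were 13 lower members, without 7d replicate 3 there were 5, and with replicate 3 as the only 24h library there were none and the median was -0.03.

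Neutrophil markers accompanied this group. Of 13 tested, 4 fell (Clec4d, Il1r2, Lcn2 and Retnlg), against 4.34% of all genes, and none rose, with a median of -1.91. Leaving out a library gave 1 to 6 lower, and besides Lcn2 each call was lost without 24h replicate 4 or 7d replicate 1, 3 or 4. Their summed TPM was 143 to 417.5 at 24h and 22.3 to 124 at 7d, against 15.5 to 21.3 at 0h, and Elane and Mpo were at 0 in all 8 libraries. In whole tissue fewer cells of a type and less RNA per cell cannot be told apart. S100a8, the gene of the title, had a TPM of 22.1, 26.9, 20.3 and 97.9 at 24h and 9.002, 26.5, 2.87 and 10.4 at 7d. The groups overlapped, 24h replicate 4 being the highest by far, and the log2 fold change of -1.91 (SE 0.74) had an adjusted p of 0.143. S100a9 had 31.6, 64.8, 72.0 and 190 TPM at 24h and 23.4, 70.5, 9.07 and 23.5 at 7d (log2 fold change -1.62, SE 0.74, adjusted p = 0.216). Neither was called in any fit that left out a library. Resident macrophage markers gave 3 higher of 21 (Folr2, Cbr2 and Timd4), against 3.74% of all genes, and none lower. Timd4 was lost without any of 6 libraries and Cbr2 without 24h replicate 1 or 7d replicate 3, and the summed level of the list overlapped between the groups.

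Genes of fatty acid oxidation and PPARA targets fell: 19 of 38 were lower, against 4.34% of all genes, and none higher, with a median log2 fold change of -0.43. Acot1, a cytosolic thioesterase that frees fatty acids from coenzyme A, had a TPM of 120, 92.9, 58.6 and 101 at 24h and 22.2, 22.1, 17.99 and 13.98 at 7d. It fell by 2.43 (SE 0.26, adjusted p = 6.99e-05), to a level near its 18.9 ± 5.13 at 0h (SD, n = 4). Its mitochondrial relative Acot2 fell by 1.11 (SE 0.12, adjusted p = 7.65e-06), from 169 to 197 TPM to 75.6 to 106, and the near-identical sequences of both genes leave the split of reads between them uncertain. Slc27a1, a fatty acid transporter, fell by 1.03 (SE 0.12, adjusted p = 1.35e-05), and Eci2, an isomerase needed for unsaturated fats, by 0.81 (SE 0.11, adjusted p = 7.44e-05). The fall reached abundant members named after their values were seen, such as Fabp3, the heart fatty acid carrier (18140 to 19430 TPM at 24h and 10820 to 14960 at 7d; adjusted p = 0.00212), and Cpt2, which completes the entry of acyl chains into mitochondria (log2 fold change -0.87, adjusted p = 0.000379). Leaving out a library gave 13 to 21 lower members, and replicate 3 as the only 24h library left 4.

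Lipolysis genes that the lists hold as adipocyte markers fell with them. Pnpla2, adipose triglyceride lipase, which frees fatty acids from stored fat in heart muscle as well as in adipose tissue, had a TPM of 942, 885, 929 and 903 at 24h and 499, 320.3, 299.5 and 338 at 7d. The 24h libraries, replicate 3 included, lay within a narrow band far above those at 7d, and Pnpla2 fell by 1.46 (SE 0.13, adjusted p = 3.21e-07). The call held with Myl7 as a covariate (log2 fold change -1.36, adjusted p = 0.00249). Lipe, hormone-sensitive lipase, fell by 1.10 (SE 0.14, adjusted p = 3.5e-05). In all 4 of 12 adipocyte markers fell, against 4.34% of all genes (Cidea and Fabp4, the others, lost their calls without 24h replicate 1, 24h replicate 4 or 7d replicate 4). The summed list was 3866 to 4716 TPM at 24h and 2715 to 3436 at 7d. Of the glucose genes, by contrast, 8 of 36 rose, against 3.74% of all genes, and 1 fell, with a median of 0.11. Slc16a1, a lactate and pyruvate carrier, rose by 0.82 (SE 0.15, adjusted p = 0.00116), from 65.8, 96.2, 132 and 67.3 TPM to 186, 161, 143 and 193. Slc2a4, the insulin-responsive glucose transporter, rose by 0.55 (adjusted p = 0.0146) with 24h replicate 3, at 320.5 TPM, inside the 7d range of 295 to 375. The glycolytic enzyme Eno1 (0.38, adjusted p = 0.0129) dropped out without 7d replicate 4, and the regulator Pfkfb2 (0.88, adjusted p = 0.0118) without 24h replicate 1. The number of glucose genes higher was 12 without 24h replicate 3, 3 without 24h replicate 1, 5 without 24h replicate 2 and 4 without 7d replicate 4.

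NRF2 targets and other antioxidant genes fell in 14 of 35 cases, against 4.34% of all genes, none rising, with a median of -0.39. Gclm, the modifier subunit of the enzyme that limits glutathione synthesis, lies at chr3:122245557-122270732 (GRCm38, GENCODE M21). It had a TPM of 41.9, 36.9, 31.9 and 43.4 at 24h and 16.7, 12.8, 13.9 and 13.3 at 7d, close to its 15.01 ± 3.10 at 0h (SD, n = 4). All 4 libraries at 24h were high and all 4 at 7d low, and the fall of 1.58 (SE 0.14, adjusted p = 3.21e-07) was called with Myl7 as a covariate (adjusted p = 0.0088) and with replicate 3 as the only 24h library. Catalase (Cat), which breaks down hydrogen peroxide, fell by 1.06 (SE 0.13, adjusted p = 1.35e-05), from 499.9 to 562 TPM to 224 to 356. Aox1, an aldehyde oxidase, fell by 1.09 (adjusted p = 0.000141), and Sqstm1, the autophagy receptor p62, by 0.86 (adjusted p = 0.00105). Mgst1, a membrane glutathione transferase named after its values were seen, fell by 1.997 (SE 0.32, adjusted p = 0.00204), from 192 to 410 TPM to 47.4 to 135. Hmox1, heme oxygenase 1, was high in 24h replicates 1, 2 and 4 (235, 153 and 135 TPM) and at 24.98 in replicate 3, within the 7d range of 18.5 to 27.4; its call (adjusted p = 0.0173) was lost without 24h replicate 1. Without that library 8 members of the list were lower, and without replicate 3 there were 18. Transcripts with overlapping antisense genes include Gclm (Gm17494) and Sqstm1 (Mrnip).

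The upstream bases of Gclm and Mgst1 are shown since both fell in every fit that left out a library and NRF2 acts through antioxidant response elements. They are the 250 bases before the RefSeq start on GRCm38.p6, plus strand, chr3:122245307-122245556 for Gclm and chr6:138140277-138140526 for the upstream start of Mgst1. Capitals mark matches to TGACNNNGC on either strand.
Gclm: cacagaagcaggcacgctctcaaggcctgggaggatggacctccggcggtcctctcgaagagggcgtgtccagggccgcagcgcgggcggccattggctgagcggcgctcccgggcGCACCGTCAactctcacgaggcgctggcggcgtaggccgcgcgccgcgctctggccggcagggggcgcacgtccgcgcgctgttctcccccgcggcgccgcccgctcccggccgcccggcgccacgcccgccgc
Mgst1: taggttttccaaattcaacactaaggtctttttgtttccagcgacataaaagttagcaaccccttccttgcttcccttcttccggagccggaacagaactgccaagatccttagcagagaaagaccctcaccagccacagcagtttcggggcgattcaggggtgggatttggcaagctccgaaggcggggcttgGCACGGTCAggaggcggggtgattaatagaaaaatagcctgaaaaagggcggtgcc
Here too a match describes the letters and is not a binding site. Each window held 1 match, on the minus strand, and the second RefSeq start of Mgst1 had 0. Such a match was present in 10.2% of the 32851 windows and in 8 of the 29 tested list members with a window (27.6%). The first share is per window and the second per gene, where a match in any window of the gene counted. Genes with more starts, such as Mgst1, had more chances.

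Single genes of protein breakdown and autophagy fell, while most members of these lists were not called. Among FOXO factors and atrophy genes 6 of 26 fell, against 4.34% of all genes, and none rose (median -0.40). The members of smallest p were Fbxo31, an F-box ubiquitin ligase subunit (log2 fold change -1.15, SE 0.15, adjusted p = 3.22e-05), and Fbxo32, atrogin-1 (-0.90, SE 0.16, adjusted p = 0.000956). Fbxo32 had a TPM of 183, 106, 120.4 and 134 at 24h and 75.0 to 84.1 at 7d, without overlap. Cdkn1a and Txnip fell too, by 2.13 and 1.14, but lost their calls without 24h replicate 1, 24h replicate 4 or 7d replicate 3. Leaving out a library gave 2 (without 24h replicate 4) to 10 (without 7d replicate 2) of the list lower, 3 without 24h replicate 1 or 7d replicate 3 and 4 without 7d replicate 1 or 4. Among mitophagy and autophagy genes 6 of 32 fell, against 4.34% of all genes, and none rose (median -0.14, with 14 members above 0 and 18 below). On leaving out a library 4 to 9 were lower. Bnip3, a receptor that marks mitochondria for removal, had 2268, 1275, 1024 and 1949 TPM at 24h and 535, 736, 341 and 262 at 7d, and fell by 1.95 (SE 0.35, adjusted p = 0.00455). Atg13, part of the complex that starts autophagy, fell by 1.01 (SE 0.12, adjusted p = 1.64e-05), and Map1lc3b, the autophagosome marker LC3B, by 0.88 (SE 0.16, adjusted p = 0.00175). Proteasome subunits fell in 7 of 34 cases, against 4.34% of all genes, none rising, with a median of -0.24. The 4 members of smallest p (Psmd4, Psma6, Psma4 and Psmd11) lay between -0.36 and -0.62. These proteasome calls depended on single libraries. Without 24h replicate 3, 14 members were lower, against 1203 of all 16866 genes. Without 7d replicate 3 or 4 there was 1. Without 24h replicate 1, 24h replicate 4 or 7d replicate 1 there were 0, against 415, 421 and 523 of all genes.

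Mitochondrial respiration genes encoded in the nucleus showed a like picture. Of 77 oxidative phosphorylation genes 6 fell (7.79%, against 4.34% of all genes lower) and none rose. The median was -0.24, with 71 members below 0 and 6 above. Cox7a1, a heart and muscle subunit of complex IV, had a TPM of 9785, 8776, 6499 and 9898 at 24h and 5045, 4937, 8216 and 5877 at 7d, with overlap through replicate 3 of each group (log2 fold change -0.68, adjusted p = 0.0332); the call was lost without any of 5 libraries. Without 24h replicate 3 there were 23 lower members, 3 without 7d replicate 3 and 1 without 24h replicate 1, while without 24h replicate 4, 7d replicate 1 or 7d replicate 4 there were 0. None of 24 tricarboxylic acid cycle enzymes and none of 76 cytosolic ribosomal protein genes was called, against 8.08% of all genes. Split by length into 4 equal parts, the shortest genes tested had a median log2 fold change of -0.15 and the longest 0.05; the part of gene length in these medians was not tested. Amino acid catabolism genes held 5 lower of 31 (median -0.19), against 4.34% of all genes, with Cdo1 far below the others. On leaving out a library 2 (without 24h replicate 4) to 9 (without 24h replicate 2) were lower, and 3 without 24h replicate 1 or 7d replicate 1. Aldh6a1, of valine breakdown, fell by 0.53 (adjusted p = 0.00369).

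Of 24 iron-handling genes 8 fell (median -0.30, and 5 without 24h replicate 1), against 4.34% of all genes, and 1, Tfrc, rose (4 without 24h replicate 3, 3 without 7d replicate 2). Among those lower were Slc40a1, the iron exporter ferroportin (log2 fold change -0.81, SE 0.13, adjusted p = 0.000318), and Hfe, a regulator of hepcidin (-0.69, SE 0.10, adjusted p = 0.000192). All 4 libraries at 7d (9.56 to 12.7 TPM) lay below those at 24h for Slc40a1. The ferritin light chain gene Ftl1 was lower by a log2 fold change of -0.64 (adjusted p = 0.0118), a call lost without 24h replicate 1. The other members lower were Hamp, Hmox1, Lcn2, Mt1 and Mt2, which also stand in the lists above.

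Tubulin genes rose: 9 of 15 tested were higher and none lower, against 3.74% of all genes, with a median of 0.51. Tuba4a, an alpha-tubulin abundant in muscle, lies at chr1:75214228-75219865 (GRCm38, minus strand). Its TPM was 83.7, 117, 187 and 87.0 at 24h and 680, 603, 590 and 989 at 7d, against 636 ± 109 at 0h (SD, n = 4). All 24h libraries were low, replicate 3 the least so, and Tuba4a rose by 2.49 (SE 0.20, adjusted p = 3.21e-07). It held with Myl7 as a covariate (log2 fold change 1.99, adjusted p = 0.00029) and with replicate 3 as the only 24h library. Tuba1b rose by 1.46 (SE 0.15, adjusted p = 7.37e-06), from 40.9, 74.5, 64.0 and 36.2 TPM to 141, 189, 146 and 157, and it too was called in both of those fits. Tuba8, a muscle and testis alpha-tubulin, rose by 0.97 (SE 0.15, adjusted p = 0.000309) and Tubb4b, a beta-tubulin, by 0.85 (SE 0.15, adjusted p = 0.000967). The others called were Tuba1a, Tuba1c, Tubb2a, Tubb5 and Tubb6, named because they complete the list. Near-identical tubulin sequences make the split of reads among Tuba1a, Tuba1b and Tuba1c uncertain, and Tuba4a overlaps the antisense gene Stk16. Leaving out a library gave 5 to 9 members higher, 5 without 24h replicate 4 or 7d replicate 4.

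**Figure D4:**
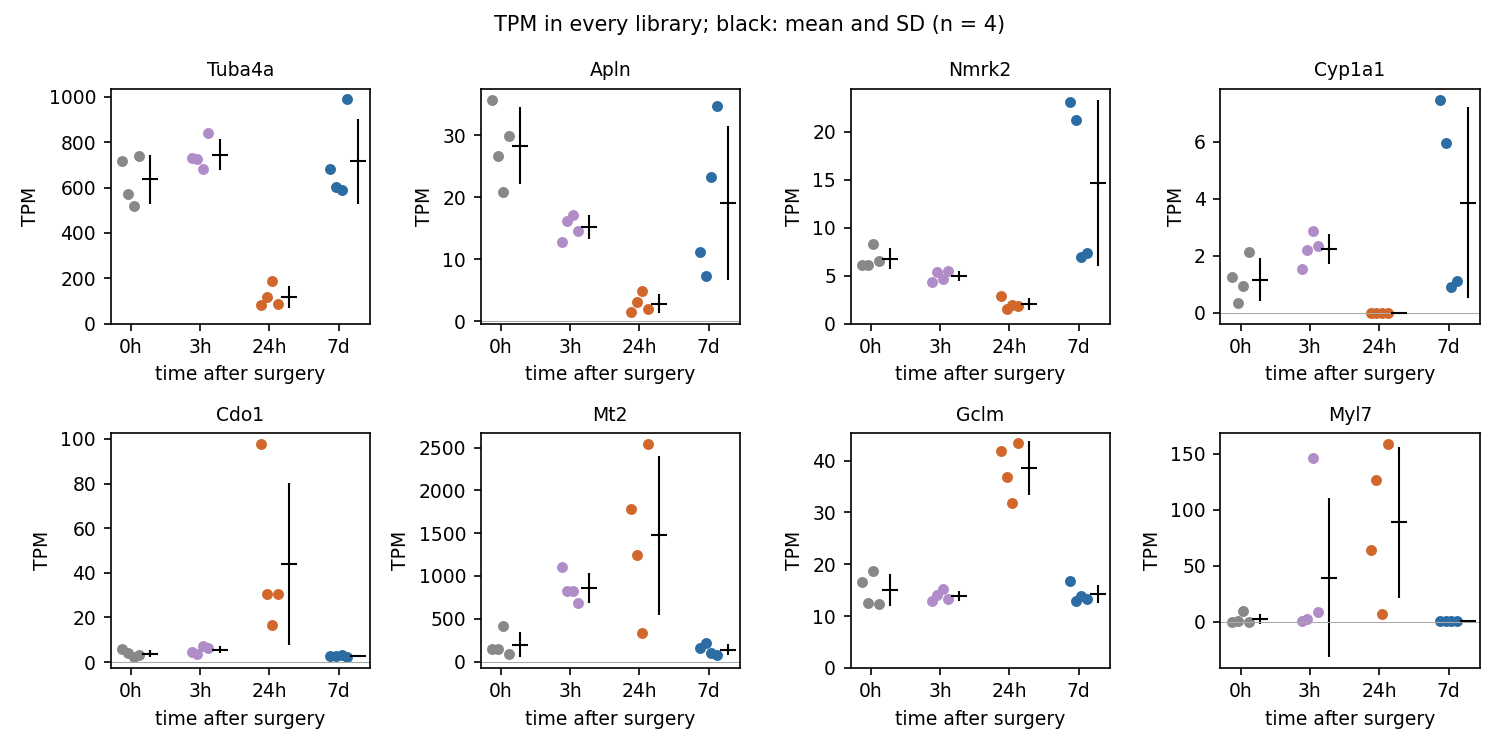
TPM of 8 genes in each of the 16 libraries by time after surgery, with the mean and SD (n = 4) in black to the right of each group; axes are linear. Tuba4a, Apln, Nmrk2 and Cyp1a1 were lowest at 24h, Cdo1, Mt2 and Gclm were highest there, and Myl7 was high in 3 libraries at 24h and 1 at 3h, so that its SD bar passes below 0.

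Apelin and endothelial tip-cell genes rose in 8 of 25 cases, against 3.74% of all genes, none falling, with a median of 0.49. Next to Apln, Esm1, a proteoglycan secreted by tip cells, had a TPM of 0.579, 2.11, 0.84 and 0 at 24h and 3.12, 3.29, 6.30 and 3.21 at 7d (log2 fold change 2.11, SE 0.49, adjusted p = 0.00811). Dll4, the Notch ligand that limits sprouting, rose by 0.59 (SE 0.13, adjusted p = 0.00681), from 9.23 to 13.9 TPM to 17.5 to 22.6, and Plvap, of the diaphragms of endothelial pores, rose by 0.53 (adjusted p = 0.0122). Aplnr, the apelin receptor, was not called (log2 fold change 0.90, SE 0.56, adjusted p = 0.378), and its 7d libraries ran from 6.47 to 61.2 TPM. The number of these genes higher was 11 without 7d replicate 2, 4 without 7d replicate 4 and 5 without 24h replicate 1, 7d replicate 1 or 7d replicate 3. General endothelial markers did not follow. Of 22 tested 1 was higher, against 3.74% of all genes (Vwf, lost without 24h replicate 1, 24h replicate 2 or 7d replicate 1). Lower were 5, against 4.34% of all genes (Aqp1, Fabp4, Ly6c1, Rnase1 and Sox17, of which Fabp4 and Sox17 lost their calls without any of 5 libraries). The endothelial markers summed to 2611 to 3744 TPM at 24h and 2177 to 2762 at 7d. Ly6c1 fell by 0.82 (SE 0.16, adjusted p = 0.00201).

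Cell cycle genes were higher in 7 of 44 cases, against 3.74% of all genes, and lower in none, with a median of 0.62. Aurkb, a mitotic kinase, had a low TPM of 0.0824, 0.107, 0.299 and 0 at 24h and 0.505, 0.468, 1.44 and 1.30 at 7d, and rose by 2.74 (SE 0.68, adjusted p = 0.0144). Kif11, a spindle motor, rose by 2.04 (SE 0.53, adjusted p = 0.0173), although 7d replicate 2 (0.185 TPM) lay inside the 24h range of 0.0977 to 0.297. Ccnd1 and Ccnd2, the cyclins that open the cycle, rose by 0.99 and 0.57 with adjusted p of 0.0174 and 0.0172; both calls were lost without 24h replicate 1, Ccnd1 also without 7d replicate 3, and Ccnd2 without 24h replicate 4 or 7d replicate 4. The same library, 7d replicate 2, was the lowest at 7d for Ccnd1 (38.4 TPM against 49.3 to 95.5). Without it 15 cell cycle genes were higher, against 716 of all 16866 genes. Without 24h replicate 1 there was 1, against 340 of all genes. Without 7d replicate 4 there were 2, and without 24h replicate 4 or 7d replicate 3 there were 3. Aurkb lost its call without 7d replicate 3, Kif11 without 24h replicate 1 or 7d replicate 4. At 0h the mean TPM was 0.87 ± 0.378 for Aurkb and 0.868 ± 0.163 for Kif11 (SD, n = 4).

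Upstream windows of Ccnb2, cyclin B2, and Kif11 are printed because promoters of mitotic genes are known for a cell cycle homology region (TTTGAA) and CCAAT boxes. Ccnb2, named after its values were seen, was called at a log2 fold change of 2.09 (adjusted p = 0.0389), lost without any of 5 libraries. The windows are chr9:70421555-70421804 (minus strand) and chr19:37376132-37376381 (plus strand) of GRCm38.p6, from RefSeq, and capitals mark either motif on either strand.
Ccnb2: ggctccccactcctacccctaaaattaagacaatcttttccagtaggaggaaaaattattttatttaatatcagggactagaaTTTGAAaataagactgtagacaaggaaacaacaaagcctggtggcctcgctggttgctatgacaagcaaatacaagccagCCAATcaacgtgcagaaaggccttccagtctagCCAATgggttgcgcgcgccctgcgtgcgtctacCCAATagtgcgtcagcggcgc
Kif11: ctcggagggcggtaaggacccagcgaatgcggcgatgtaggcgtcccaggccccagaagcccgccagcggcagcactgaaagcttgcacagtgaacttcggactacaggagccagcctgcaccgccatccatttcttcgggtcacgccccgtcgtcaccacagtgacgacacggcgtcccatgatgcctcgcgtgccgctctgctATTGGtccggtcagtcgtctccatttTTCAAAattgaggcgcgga
Ccnb2 held 1 TTTGAA and 3 CCAAT, and Kif11 held 1 of each. Both motifs were present in 5.55% of the 32851 windows and in 10 of 34 tested cell cycle genes with a window (29.4%). These shares differ in unit, since a gene counted if any of its windows held both motifs. Genes with more starts had more chances.

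Among contractile and matrix genes the calls went in both directions. Of 40 calcium handling and excitation genes 10% were called, close to the 8.08% of all genes, and besides Sln none was called lower. The median was 0.14, with 28 members above 0 and 12 below. The 3 that rose were Jph2, which ties the calcium store to the cell surface (log2 fold change 0.70, SE 0.15, adjusted p = 0.00606), Casq2, the calcium buffer of that store (0.66, adjusted p = 0.0064), and the kinase Camk2d (0.60, SE 0.11, adjusted p = 0.00181). For all 3, 24h replicate 3 was the highest of the 24h libraries. For Jph2 and Casq2 it overlapped with 7d (496 and 947 TPM against 484 to 595 and 906 to 1394). Without that library 11 of the list were higher, against 1204 of all 16866 genes. Actc1, cardiac alpha-actin, rose by 0.99 (SE 0.20, adjusted p = 0.00397), from 4829, 6236, 9276 and 4973 TPM to 15910, 6887, 12700 and 18950. Irx4, a ventricular transcription factor, rose by 0.71 (adjusted p = 0.00718) and was also above 0h (0.68, adjusted p = 0.043). Grk5, a kinase that desensitises adrenergic receptors, fell by 1.03 (SE 0.12, adjusted p = 1.4e-05), from 31.6, 52.3, 39.4 and 33.2 TPM to 25.1, 20.6, 17.7 and 19.5. Nppa and Nppb, the natriuretic peptide genes of cardiac strain, were not called (log2 fold changes 0.91 and 1.86, adjusted p of 0.348 and 0.0706).

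Of 53 collagen and matrix genes 6 rose and 5 fell, against 3.74% and 4.34% of all genes. The median was 0.29, with 36 members above 0 and 17 below. Without 7d replicate 3 or 4 there was 1 each way, without 24h replicate 1 there were 2 each way, without 24h replicate 4 there were 3 higher and 0 lower, without 7d replicate 1 there was 1 lower, and without 7d replicate 2 there were 11 higher. Lum, the collagen-binding lumican, rose by 0.76 (SE 0.14, adjusted p = 0.00183), from 46.4 to 75.4 TPM to 87.8 to 140.4. Fmod, fibromodulin, of the same family, fell by 2.09 (SE 0.52, adjusted p = 0.013) at low levels, lost its call without 24h replicate 4, and was also below 0h (-2.20, adjusted p = 0.04). Fibroblast markers summed to 2451 to 2746 TPM at 24h and 2843 to 3291 at 7d. Of 16 tested 3 were higher (Col1a2, Lum and Smoc2), against 3.74% of all genes, and none lower. Col1a2 and Smoc2 lost their calls without 24h replicate 1, 7d replicate 3 or 7d replicate 4. Of 52 interferon-stimulated genes 5 were higher and 1 lower, against 3.74% and 4.34% of all genes. The median was 0.20, with 38 members above 0 and 14 below. Ifit3 (0.90, adjusted p = 0.00153), Ifit2 (0.76, adjusted p = 0.00374) and Psmb10 (0.55, adjusted p = 0.00643) were among 5 higher (3 higher without 24h replicate 3, 24h replicate 4, 7d replicate 3 or 7d replicate 4). Iigp1, an interferon-inducible GTPase, fell by 2.16 (SE 0.31, adjusted p = 0.00106). Iigp1 had a TPM of 134, 118, 73.3 and 48.2 at 24h and 17.5 to 30.0 at 7d. None of 10 class II antigen presentation genes was called, against 8.08% of all genes, a share at which so short a list may hold 0. By sign, 9 lay above 0 and 1 below (median 0.56), and Cd74, the most abundant, had an adjusted p of 0.175.

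**Figure D5:**
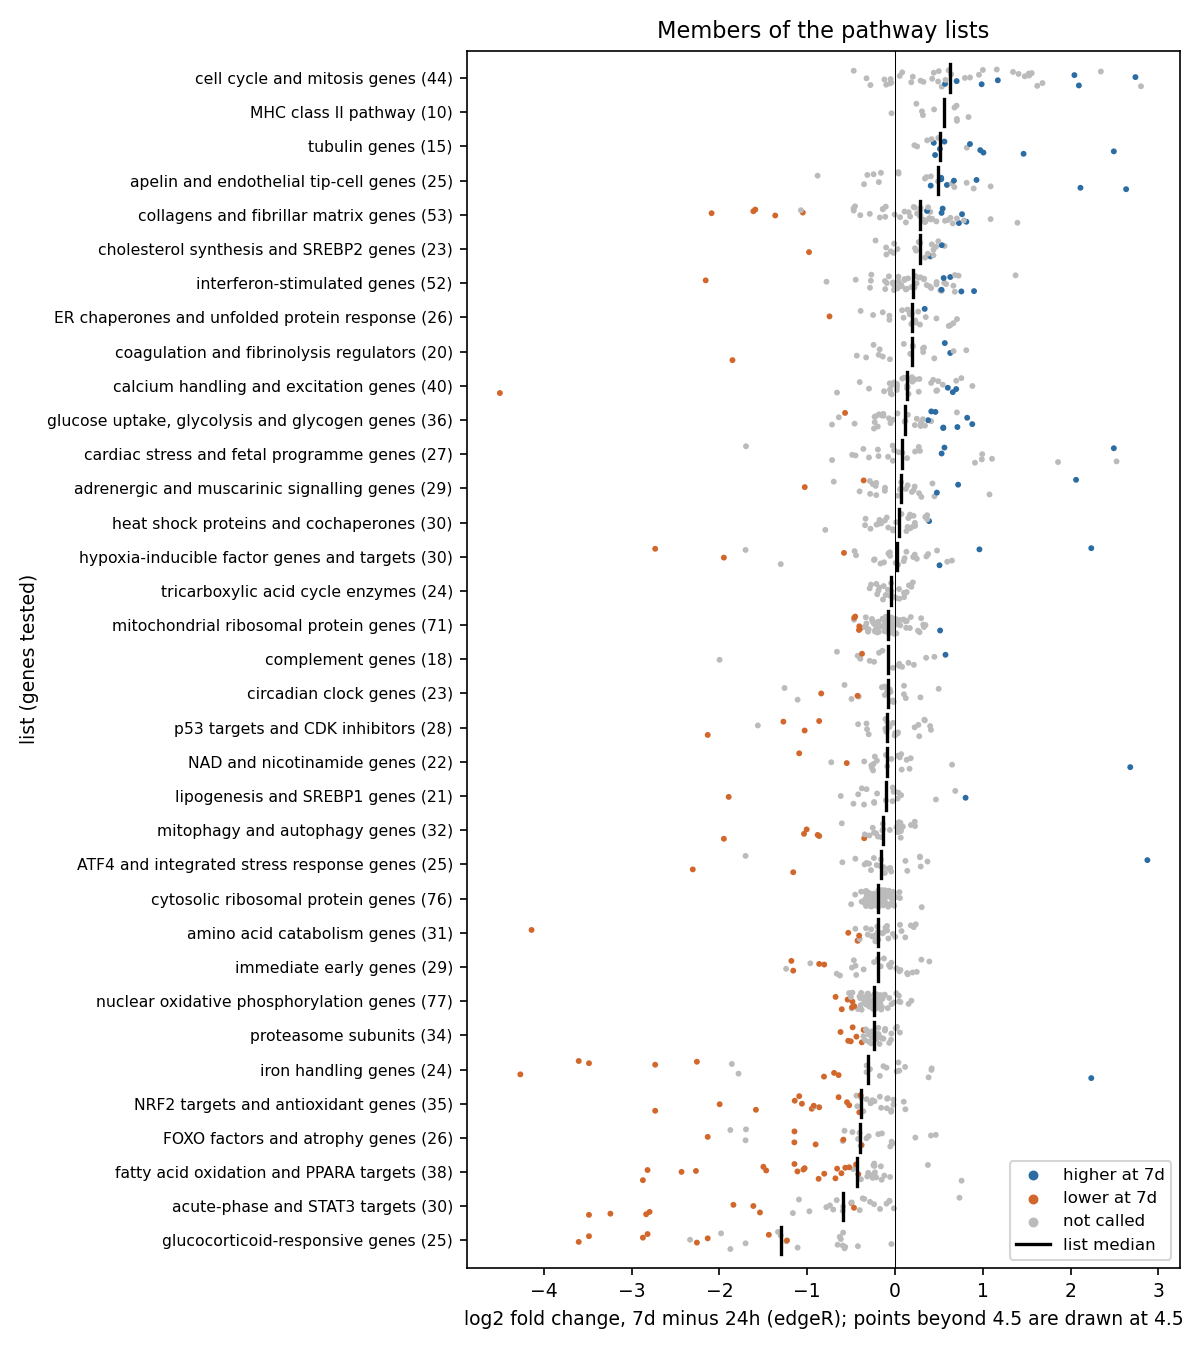
Log2 fold change, 7d minus 24h, of every tested member of the 35 pathway lists, ordered by list median (black bar), with called members coloured and the number tested in brackets; Sln, at -8.12, is drawn at the edge of the axis. Glucocorticoid-responsive genes lie lowest (median -1.30) and cell cycle genes highest (0.62).

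Further single genes changed in lists of which few members were called. Chac1, which degrades glutathione and is a target of ATF4, fell by 2.30 (SE 0.34, adjusted p = 0.000264), from 10.5, 9.46, 12.7 and 19.3 TPM to 3.45, 2.67, 1.98 and 3.52. Its level at 7d was also below that at 0h (log2 fold change -1.85, adjusted p = 0.014; 11.4 ± 5.51 TPM at 0h, SD, n = 4). Scd2 and Scd4, both stearoyl-CoA desaturases, which make monounsaturated fats, changed in opposite directions. Scd2 rose by 0.80 (SE 0.11, adjusted p = 8.87e-05), from 6.61 to 10.3 TPM to 15.7 to 17.2, while Scd4, the heart form, fell by 1.89 (SE 0.40, adjusted p = 0.0105), from 14.7 to 30.6 TPM to 4.15 to 14.1. Fdft1, squalene synthase, fell by 0.98 (SE 0.13, adjusted p = 4.64e-05) while the cholesterol list had a median of 0.29 and its members Sc5d and Hmgcs1 rose by 0.53 and 0.40 (adjusted p of 0.00359 and 0.0411, the latter lost without any of 5 libraries). Fdft1 overlaps Ctsb on the other strand. Efemp1, an extracellular fibulin, rose by 1.12 (SE 0.16, adjusted p = 0.000103), from 9.91 to 14.8 TPM to 24.7 to 36.8. Ccr2, a chemokine receptor of monocytes, rose by 1.05 (adjusted p = 0.00971), although 1 library at 7d overlapped the 24h range. Among clock genes Nr1d1, a repressor of the clock, fell by 0.43 (adjusted p = 0.0379), a call lost without any of 6 libraries, and it overlaps Thra.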

How the data were processed

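Poly(A) RNA of the left ventricle was sequenced from libraries made with a directional NEBNext kit, per the labels' protocols. The submitters' processing notes name cutadapt, STAR and the build mm10; tool versions, how reads were counted and whether by strand is not given in the sources used here. The table the authors deposited gives each library raw counts, TPM and FPKM, per the file headers. Its counts are whole numbers and not normalized, and FPKM were not used. Columns were matched to libraries by time and number, since their prefix differs from that of the titles. The table holds no mitochondrial gene, and 525 genes have no symbol.

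From these, counts of the 16866 genes were normalized by TMM, then tested in edgeR 4.0.16 (glmQLFit and glmQLFTest, robust, 16 libraries in 1 fit, contrast 7d minus 24h) in R 4.3.3. P-values were adjusted by Benjamini-Hochberg over all genes tested, with a threshold of 0.05, and every adjusted p comes from this fit unless another is named. The SE is the log2 fold change divided by the square root of F. Deposited TPM serve as levels. Named genes are the 12 largest rises and falls (called, mean TPM of 2 or more in a group, groups not overlapping, named symbol), S100a8, S100a9 and up to 4 members of smallest p in each of 51 lists, or 2 of highest level where none passed; genes said to be named after their values were seen fall outside this rule, as do called members given to complete a list and members described as not called. The comparison, the members and the lists were chosen with earlier results of these data known. Coordinates come from GENCODE M21 (95.7% of the genes tested matched) and upstream windows from RefSeq (GRCm38.p6). Alternatives were other scalings, filters and pseudocounts, DESeq2 1.42.0, limma 3.58.1, a replicate block, the 8 libraries alone and leaving out each library. Myl7 as a covariate and replicate 3 as the only 24h library were chosen after seeing the data. Intervals and floors cover counting error only. On simulated counts for 7d against 24h (16866 genes), edgeR recovered 31.3%, 53.7% and 75.8% of changes of 1.5-, 2- and 4-fold, with 5.31% of calls false. Those counts were drawn gene by gene, without deviations that the genes of a library share, and gave 113 calls against 1363 in the data. The share of false calls in the data was not measured. Results of some genes are not reported here.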

Additional observations from a re-analysis of the deposited data

Results flagged for a closer look

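Among the 4 libraries of a group, the highest or lowest library was taken as standing apart where its gap to the next, divided by the range of the group, was above the 95% critical value of Dixon's test. This held for 28 of 352 groups of values (7.95%), where chance gives about 1 in 20. No cause of these values was tested.

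At 24h the high libraries were replicate 1 for Cdo1 (97.8 TPM) and Atg13 (88.2), replicate 2 for Tubb6 (30.9) and replicate 4 for S100a8 (97.9), Il1r2 (2.53), Mrps36 (286) and the summed neutrophil markers (417.5). Replicate 3 was high for Mybpc3 (2306 TPM), Slc2a4 (320.5) and Lgi3 (1.28) and low for Rpl36 (2621), and replicate 1 was low for Lum (46.4). These 24h values bear on the report's Cdo1, S100a8, Slc2a4 and Lum.

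At 7d replicate 2 was high for Gdf15 (33.1 TPM), Scd4 (14.1), Myc (6.09), Psma6 (393), Il1r2 (0.362) and Hamp (0.561). Replicate 3 was high for Esm1 (6.30 TPM), Scd2 (17.2), Sln (0.189) and the summed platelet and megakaryocyte markers (124). Replicate 4 was high for Tfrc (59.2 TPM), Eno1 (82.0) and Ccnd2 (47.3) and low for Cd59a (161), while replicate 1 was high for Acta1 (867) and low for Bckdhb (108). Sln, Hamp and Il1r2 were at 0 in the other 7d libraries.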

How the results depend on the processing

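The count of 1363 called genes was 354 in a fit of the 8 libraries alone (123 higher, 231 lower), 23 with Myl7 as a covariate (6 and 17) and 86 with replicate 3 as the only 24h library (15 and 71), where the lone library is assumed to vary like the other groups. Leaving out a library gave 755 to 2407 genes, 340 to 1204 higher and 415 to 1203 lower. DESeq2 called 1816, limma-voom 1378 and no filter on TPM 1968, 965 of them higher. By limma on TPM, genes lower were 366 with a pseudocount of 1 and 357 with 0.1. Scaling by totals alone gave 59.6% of calls higher and log2(TPM + 1) 67.2%, against 46.3%; the median of all genes then moved to 0.05 and 0.10, and to 0.12 with log2(TPM + 0.1). On TPM the medians of the lipogenesis, tricarboxylic acid cycle, ventricular cardiomyocyte, mitochondrial ribosomal, clock, p53, complement and NAD lists changed sign. The fatty acid oxidation median was -0.30 with either pseudocount, and that of cell cycle genes 0.24 at a mean TPM of 2 or more. With replicate 3 as the only 24h library, medians were -0.031 (acute-phase), -0.19 (NRF2), -0.014 (proteasome), -0.020 (oxidative phosphorylation), -0.28 (glucocorticoid) and 0.27 (tip-cell), and Thbs1 (0.32) and Psma6 (0.0084) turned positive. The glucocorticoid median was -0.56 with the covariate and -1.83 to -0.59 on leaving out a library. Of 141 named genes called, 81 were called in every such fit. Replicate numbers did not pair libraries (correlations of deviations -0.12 to -0.04, and 0 of 4 libraries at either time went best with their own number); the replicate block called 1168 genes (558 higher, 610 lower) and 129 of the 141. At this depth edgeR found 31.3% of 1.5-fold changes simulated without deviations shared among genes. The cause of these differences was not tested.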
